A study of Homo sapiens with 6 samples.

Results

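The antisense long noncoding RNAs of KYSE510 cells were compared between control cells and cells carrying an shRNA against a ribonuclease named RNH1 in the labels. KYSE510 is an established line of oesophageal squamous cell carcinoma. Members were the genes whose symbol ends in -AS and a number and whose mean level over the 6 libraries was at least 1 CPM, the usual unit of counts scaled to a common library total. That left 428 of the 1826 antisense symbols among the 62700 genes of the count table. Of the 1826 symbols, 1383 had at least 1 count and 443 were listed at 0 in every library. The mean level chose the members, so their abundance is described here and not tested.

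The 2 groups were 3 libraries of cells with a control shRNA (shControl, genotype given as WT) and 3 of cells with the knockdown shRNA (shRNH1), all grown in medium with fetal bovine serum. The series describes the knockdown as a way to induce R-loops. The labels name 1 cell line and give no time after the shRNA, and number the samples of a group as biological replicates without saying whether cultures were separate, so p-values measure only the spread between libraries, which may be technical. Library totals ran from 31394687 to 41103220 counts.

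An antisense RNA is transcribed from the strand opposite to a gene, often starting at that gene's own promoter or inside its body. Many such RNAs are spliced and polyadenylated like mRNAs, while others are removed in the nucleus by the RNA exosome. R-loops are stretches in which RNA pairs with the DNA template and leaves the other DNA strand free; they form often at GC-rich promoters, and antisense transcripts are found at many of them. RNase H1, encoded by RNASEH1, cuts the RNA of such hybrids, and RNH1 is the symbol of a different gene, for an inhibitor of RNase A-type enzymes. Several antisense RNAs act on the gene they face by recruiting chromatin proteins or by transcription through its promoter, and for most no role is known.

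The labels were checked first. RNASEH1 stood at 34.9, 32.5 and 27.5 CPM (normalised by TMM) in shControl and at 7.40, 7.03 and 7.03 CPM in shRNH1. Below, CPM of single libraries, group means, marker sums and levels per kilobase are normalised likewise. The 1 CPM minimum, also within a group, uses CPM of raw library totals. So do mean levels over the 6 libraries, level classes and medians of level. The groups lay far apart, and RNASEH1 fell by 2.14 on the log2 scale with a standard error (SE) of 0.116 (edgeR's quasi-likelihood test, adjusted p = 1.61e-13 after Benjamini-Hochberg adjustment over 19682 genes). RNH1 itself stood at 516, 467 and 655 CPM against 441, 529 and 463 CPM, with overlapping groups and a log2 fold change of -0.19 (adjusted p = 0.221). The 8 squamous markers summed to 1136 to 1442 CPM in shControl and 1038 to 1083 CPM in shRNH1, with 2 higher and 4 lower. The 5 leukocyte markers summed to 0.508 to 0.771 CPM in shControl and 1.15 to 1.71 CPM in shRNH1, and 4 of them were too low to test. The 3 endothelial markers summed to 19.98 to 21.8 and 18.4 to 20.7 CPM, and the 5 fibroblast markers to 62.5 to 71.8 and 111 to 133 CPM, with COL1A2 and DCN listed at 0 in every library. Of the fibroblast list 1 was higher and 1 lower: COL1A1 had means of 62.5 and 123 CPM, and PDGFRB fell 1.88-fold. The part of these shifts in the results below was not tested, and in bulk RNA fewer cells of a type and less RNA per cell cannot be told apart.

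The start of an antisense RNA is often the start region of its sense gene, read the other way. For 11 of the divergent pairs, in which the 2 genes start within 1000 bases of each other and run apart, 1 RefSeq promoter window of 300 bases (250 before the antisense start and 50 from it on, build GRCh38.p14) held both start sites. Of these windows, 3 are shown because they carry the 3 ways in which both genes of a divergent pair passed the test below: URB1-AS1 rose while URB1 fell, SSTR5-AS1 and SSTR5 both rose, and RASAL2-AS1 and RASAL2 both fell. Each is written 5′ to 3′ on the antisense RNA's strand, and the capitals mark the bases between the sense gene's start and the antisense start.
URB1-AS1: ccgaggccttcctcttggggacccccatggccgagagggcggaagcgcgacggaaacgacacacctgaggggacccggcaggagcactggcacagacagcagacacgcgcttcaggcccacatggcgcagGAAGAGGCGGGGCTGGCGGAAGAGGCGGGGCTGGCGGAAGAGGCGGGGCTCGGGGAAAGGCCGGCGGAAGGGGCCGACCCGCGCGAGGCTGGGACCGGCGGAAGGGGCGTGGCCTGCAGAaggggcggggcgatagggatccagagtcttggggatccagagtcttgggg
SSTR5-AS1: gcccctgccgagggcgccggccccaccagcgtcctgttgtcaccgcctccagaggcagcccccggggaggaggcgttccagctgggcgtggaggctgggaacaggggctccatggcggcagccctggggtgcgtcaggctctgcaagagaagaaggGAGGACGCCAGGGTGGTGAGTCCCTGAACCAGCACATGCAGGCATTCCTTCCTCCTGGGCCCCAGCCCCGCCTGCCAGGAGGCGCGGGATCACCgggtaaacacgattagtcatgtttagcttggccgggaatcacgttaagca
RASAL2-AS1: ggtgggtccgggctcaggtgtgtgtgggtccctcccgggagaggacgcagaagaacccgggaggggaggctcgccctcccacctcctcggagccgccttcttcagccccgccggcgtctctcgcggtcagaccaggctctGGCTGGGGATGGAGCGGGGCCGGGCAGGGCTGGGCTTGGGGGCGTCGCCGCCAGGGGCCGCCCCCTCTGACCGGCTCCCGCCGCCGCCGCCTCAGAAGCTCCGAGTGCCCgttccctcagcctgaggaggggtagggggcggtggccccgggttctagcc
The URB1-AS1 window is chr21:32392883-32393182 on the plus strand, with start sites 121 bases apart. The SSTR5-AS1 window is chr16:1078682-1078981 on the minus strand, with start sites 95 bases apart. The RASAL2-AS1 window is chr1:178093944-178094243 on the minus strand, with start sites 111 bases apart. GC content was 71.3%, 67% and 75%, and CpG dinucleotides numbered 28, 18 and 27, in that order.

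A promoter window was found for 319 of the 428 antisense RNAs. Their median GC content was 63.7% with 20 CpG, against 58.7% and 14 CpG over all 35116 RefSeq windows of that length. The GC box GGGCGG, read on both strands, was in 55.8% of the antisense windows and in 45.0% of all windows. The TATA box TATAAA, on both strands, was in 4.70% against 11.5%. The box CCAAT, on both strands, was in 28.2% against 34.6%. None of these 3 motifs contains another. Windows of the 58 RNAs that rose had a median GC content of 67.7% and 25.5 CpG, those of the 19 that fell 64% and 16, and those of the 242 that did not pass the test 62.7% and 19.5. Antisense RNAs lying wholly inside their sense gene had the poorest windows, with a median GC content of 57% and 9.5 CpG over 76 windows. Those of divergent pairs had a median of 70% and 28 CpG over 15 windows. A match is only the presence of these letters, and these shares were not tested. Members had to reach 1 CPM in these cells, while the RefSeq windows were taken whatever the level of their gene. The part of that choice in the differences from all windows was not tested.

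Antisense RNAs were rare transcripts. Their mean level ran from 1.00 to 93.5 CPM with a median of 2.55 CPM, 167 of them lay under 2 CPM, and 44 reached 10 CPM. At the edge of the rule stood PSMD6-AS2 (1.00 CPM), L3MBTL2-AS1 (1.00 CPM) and LIMD1-AS1 (1.01 CPM) inside, and NRSN2-AS1 (0.996 CPM), SEC24B-AS1 (0.994 CPM) and RBM5-AS1 (0.989 CPM) outside. Together they took 0.181%, 0.209% and 0.177% of all counts in shControl and 0.213%, 0.237% and 0.213% in shRNH1. The groups came close without overlapping in this share of raw totals. As TMM-normalised sums they overlapped, with 1867, 2082 and 1946 CPM in shControl and 2097, 2256 and 2031 CPM in shRNH1. The 10 most abundant members made up 20.3% to 22.6% of it.

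Most members overlapped the gene they are named for. GENCODE 29 (GRCh38) placed 426 of them, 336 with the gene type antisense, 44 as lincRNA, 39 as processed transcript and 3 as protein coding. A sense gene of the same symbol was in the table for 420 members, counting 415 different genes, since SLCO4A1, PTOV1, BCAN, TFAP2A and DLGAP1 each have 2 antisense RNAs here. The other 8 have no sense gene of that symbol. The names of 6 of these refer to a HOX cluster, and the remaining ones are KRTAP5-AS1 and ZNF295-AS1. Exons lay over exons of the sense gene in 289 pairs, the spans overlapped without shared exon bases in 102, and 20 were divergent. Per kilobase of exon, the sense gene stood higher in 347 of 418 pairs, and the median antisense level was 19.4% of the sense level. The sources used here do not state whether counting used strand, so where exons overlap, reads of an antisense RNA and of the gene on the other strand cannot be told apart. Such overlap with any gene of the other strand touched 317 members, and 109 had none.

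After the knockdown, 74 of the 428 antisense RNAs were higher and 28 lower, 23.8% in all (edgeR's quasi-likelihood test, Benjamini-Hochberg adjusted p under 0.05). Over all 19682 genes tested, 27.6% passed, 15.3% higher and 12.3% lower. Among tested genes of a like low level, with a mean of 1 to 10 CPM, 28.2% passed, 20.7% higher and 7.53% lower, and among all tested genes from 1 CPM on 33.9% did. The number of antisense RNAs that passed was therefore near or under the background. Higher calls outnumbered lower ones, as they did among genes of 1 to 10 CPM. The median log2 fold change of the antisense RNAs was 0.065, against 0.016 for all genes, and was -0.055 with an offset for expression level. Of the calls, 72.5% were higher, against 84.6% when libraries were scaled by total count (library size alone), a scaling that moved the median of all genes to 0.13, and 56.7% with the expression-level offset.

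The log2 fold change was at least 1 for 25 of the 74 that rose and at most -1 for 6 of the 28 that fell. The groups did not overlap for 153 members, beside 40% of all genes tested and 46% of those from 1 CPM on. Calls became more frequent with level: 20 higher and 8 lower among 167 members of 1 to 2 CPM, 28 and 7 among 161 of 2 to 5 CPM, 16 and 5 among 56 of 5 to 10 CPM, and 10 and 8 among the 44 from 10 CPM on. The median SE of the log2 fold change fell from 0.280 in the lowest of these classes to 0.119 in the highest. For 29 members only shRNH1 reached 1 CPM and for 15 only shControl did, and such members had to differ in the direction of that group. Of those named below, UGDH-AS1, HLA-F-AS1, TMEM51-AS1, ST20-AS1, UNC5B-AS1, DLG5-AS1, PDCD4-AS1 and TRABD-AS1 reached it in shRNH1 alone, and IER3-AS1, BCL2L1-AS1, GLIPR1-AS1 and IQCJ-SCHIP1-AS1 in shControl alone, so the values of these are a description. Among the 384 that reached it in both groups, 59 were higher and 24 lower, 14 of them with a log2 fold change of at least 1 and 3 of at most -1. Leaving out shControl replicate 2 lowered the count of falling members from 28 to 16, and leaving out shRNH1 replicate 1 lowered it to 18.

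**Figure D1:**
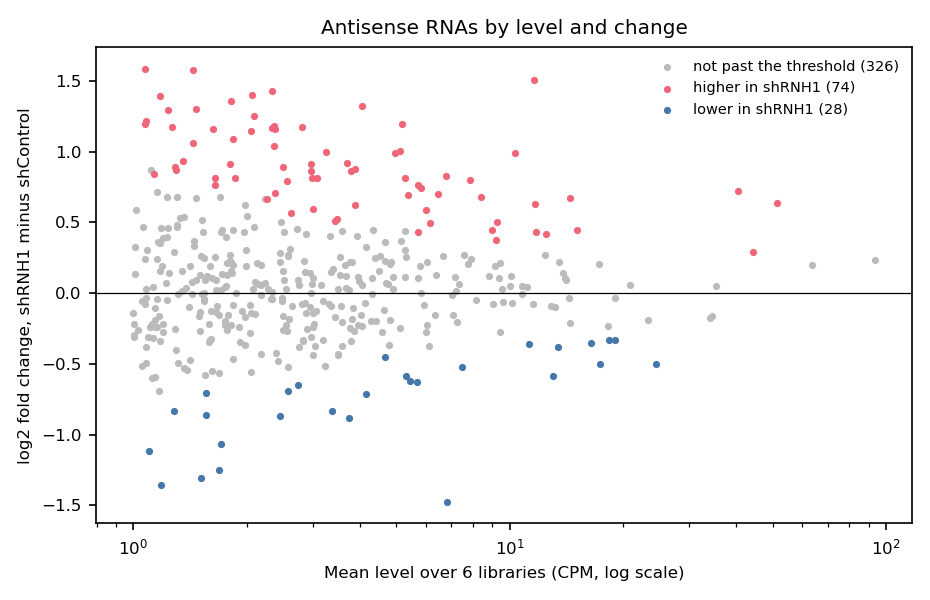
Each point is 1 of the 428 antisense RNAs, with its mean level over the 6 libraries (CPM, log scale) on the x axis and its fitted log2 fold change (shRNH1 minus shControl) on the y axis. The 74 higher and 28 lower members are coloured; the largest fold changes sit at low levels, and FZD10-AS1 stands out at the top near 10 CPM.

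FZD10-AS1 had the smallest adjusted p of the antisense RNAs named here. It lies at chr12:130144315-130162256 on the minus strand, next to FZD10, which encodes a receptor for Wnt proteins. FZD10-AS1 stood at 5.93, 5.47 and 6.4 CPM in shControl and at 16.5, 19.8 and 14.2 CPM in shRNH1. All shRNH1 libraries lay above all shControl libraries, 2.84-fold on average (log2 fold change 1.51, SE 0.133, adjusted p = 1.85e-09). FZD10 moved with it, from 13.9, 13.6 and 15.3 CPM to 37.3, 39.7 and 32.3 CPM, with no overlap (log2 fold change 1.35, adjusted p = 2.13e-10).

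UGDH-AS1 and HLA-F-AS1 had the largest fitted rises, but both are members through shRNH1 alone, which fixed their direction. UGDH-AS1 (chr4:39528019-39594707, plus strand) starts within UGDH, which encodes the enzyme that makes UDP-glucuronate. It stood at 0.437, 0.895 and 0.217 CPM in shControl and at 1.5, 1.59 and 1.64 CPM in shRNH1. The shControl libraries were spread widely but all lay below shRNH1, and UGDH-AS1 rose by 1.59 on the log2 scale (SE 0.367). UGDH rose by less, from 27.0, 21.9 and 19.6 CPM to 30.8, 30.8 and 33.4 CPM (log2 fold change 0.47, adjusted p = 0.00186).

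HLA-F-AS1 (chr6:29726601-29749049, minus strand) faces HLA-F, a class I histocompatibility gene. It stood at 1.03, 0.653 and 0.434 CPM in shControl and at 1.59, 2.25 and 2.52 CPM in shRNH1. The groups did not overlap, and HLA-F-AS1 rose by 1.58 (SE 0.310). HLA-F rose alongside from 2.67, 3.24 and 2.28 CPM to 6.78, 7.57 and 7.09 CPM (log2 fold change 1.38, adjusted p = 3.63e-07). HLA class I genes are close relatives and can share reads, so this pair is uncertain.

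In further pairs the RNA and its gene both rose. NNT-AS1 stood at 1.08, 1.38 and 0.868 CPM against 2.83, 2.53 and 3.49 CPM, clear of each other (log2 fold change 1.40, adjusted p = 7.96e-05). NNT, the mitochondrial transhydrogenase that makes NADPH, rose by 1.15 on the log2 scale (adjusted p = 7.54e-07). UNC5B-AS1, which lies within UNC5B, a receptor for the guidance protein netrin, stood at 0.796, 0.653 and 1.06 CPM against 2.36, 2.08 and 1.73 CPM. Its groups did not overlap either, and it rose by 1.30 beside a rise of UNC5B by 1.19 (adjusted p = 1.26e-10). LIPE-AS1, across from the hormone-sensitive lipase gene LIPE, rose by 1.43 and LIPE by 0.89. CBR3-AS1 rose by 1.25 and CBR3, a carbonyl reductase, by 1.15. PDCD4-AS1 rose by 1.22 and PDCD4, an inhibitor of translation initiation, by 0.65, though without shRNH1 replicate 2 PDCD4-AS1 missed the threshold (0.95, adjusted p = 0.0511). UNC5B-AS1, PDCD4-AS1 and ST20-AS1 are members through shRNH1 alone, so their direction was fixed by the rule. ST20-AS1 rose by 1.36, and ST20 had a log2 fold change of 0.63 that did not pass (adjusted p = 0.229).

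Some antisense RNAs rose at genes that did not pass the test. MRPL23-AS1 (chr11:1983237-1989920, minus strand) overlaps the end of MRPL23, a gene for a mitochondrial ribosomal protein. It stood at 1.93, 1.86 and 3.04 CPM in shControl and at 5.01, 6.95 and 5.09 CPM in shRNH1. The groups lay apart, and the RNA rose by 1.33 (SE 0.201, adjusted p = 1.36e-05). MRPL23 stood at 22.0, 18.8 and 25.6 CPM against 20.2, 23.5 and 19.4 CPM. Its groups overlapped, with a log2 fold change of -0.073 and a 95% interval from -0.31 to 0.16. DLG5-AS1 starts next to DLG5, a gene for a scaffold protein of cell junctions. It stood at 0.616, 0.677 and 0.814 CPM against 1.62, 2.05 and 1.52 CPM, without overlap (log2 fold change 1.30). DLG5 stood at 338, 360 and 421 CPM against 404, 395 and 347 CPM, overlapping, with a 95% interval of its log2 fold change from -0.17 to 0.24. TMEM51-AS1 stood at 0.642, 0.484 and 0.787 CPM against 1.03, 2.59 and 1.39 CPM. Its groups did not overlap, shRNH1 replicate 2 was far above the others, and the log2 fold change of 1.40 became 0.93 (adjusted p = 0.0642) without that library. TMEM51 stood at 23.8, 24.9 and 28.0 CPM against 22.1, 23.2 and 22.3 CPM. Its groups came close without overlapping, and its log2 fold change of -0.18 did not pass (adjusted p = 0.203). DLG5-AS1 and TMEM51-AS1 are members through shRNH1 alone, which fixed the direction of both, while MRPL23-AS1 reached 1 CPM in both groups.

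HMGA2-AS1 had the largest fall. It lies within HMGA2 (chr12:65851340-65882167, minus strand), which encodes a chromatin protein that is active in embryos and in many carcinomas. HMGA2-AS1 stood at 9.79, 11.1 and 9.72 CPM in shControl and at 3.27, 4.64 and 3.09 CPM in shRNH1. The groups were well separated, with a 2.78-fold fall (log2 fold change -1.47, SE 0.156, adjusted p = 4.82e-08). HMGA2 fell with it, from 61.7, 60.3 and 61.4 CPM to 18.3, 22.7 and 19.2 CPM (log2 fold change -1.61, adjusted p = 3.39e-12). Only 6.36% of the exon bases of HMGA2-AS1 lie over exons of HMGA2.

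The other large falls also came with a falling sense gene. IER3-AS1 stood at 1.72, 1.96 and 1.52 CPM against 0.501, 0.826 and 0.697 CPM, without overlap (log2 fold change -1.36). IER3, an early response gene, fell by 0.95 on the log2 scale, and 68.1% of the exon bases of IER3-AS1 lie over it, the highest share among the large rises and falls. BCL2L1-AS1 shares no exon base with BCL2L1, the gene for the survival protein Bcl-xL. It stood at 1.85, 2.27 and 2.47 CPM against 0.914, 0.570 and 1.18 CPM, without overlap, and fell by 1.31, while BCL2L1 fell by 0.73. IER3-AS1 and BCL2L1-AS1 are members through shControl alone, so both had to be lower in shRNH1. IGF2BP2-AS1 fell by 1.07 and IGF2BP2, an mRNA-binding protein gene, by 0.74. PITPNM2-AS1 fell by 0.83 and PITPNM2 by 1.06, and KIF23-AS1 fell by 0.71 and KIF23, a kinesin of cell division, by 0.35 (adjusted p = 0.0724 with library size alone). SLCO4A1 has a pair of antisense RNAs that both fell, SLCO4A1-AS1 by 0.88 and SLCO4A1-AS2 by 0.38, beside 0.35 for the transporter gene itself, whose call was lost without shRNH1 replicate 3 (adjusted p = 0.0516) or under an offset for level (0.0776).

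Of the large falls, 3 lost their call when single libraries were left out, though none of these changed sign. GLIPR1-AS1 and IQCJ-SCHIP1-AS1 are also members through shControl alone. GLIPR1-AS1 fell by 1.12, and missed the threshold without shControl replicate 1 (adjusted p = 0.0668) or shRNH1 replicate 1 (adjusted p = 0.0702), while GLIPR1 fell by 1.81. LOXL2-AS1 fell by 0.86 (adjusted p = 0.0126), and missed it without shControl replicate 2 (adjusted p = 0.0781), while LOXL2, a collagen-crosslinking oxidase gene, fell by 0.53. IQCJ-SCHIP1-AS1 fell by 0.83, and missed it without shControl replicate 2 (adjusted p = 0.118), shRNH1 replicate 1 (0.0812 for the adjusted p) or shRNH1 replicate 3 (0.0782), and with library size alone (0.0612). IQCJ-SCHIP1 fell by 0.64, with an adjusted p of 0.0528 without shRNH1 replicate 1 and of 0.0860 by DESeq2.

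**Figure D2:**
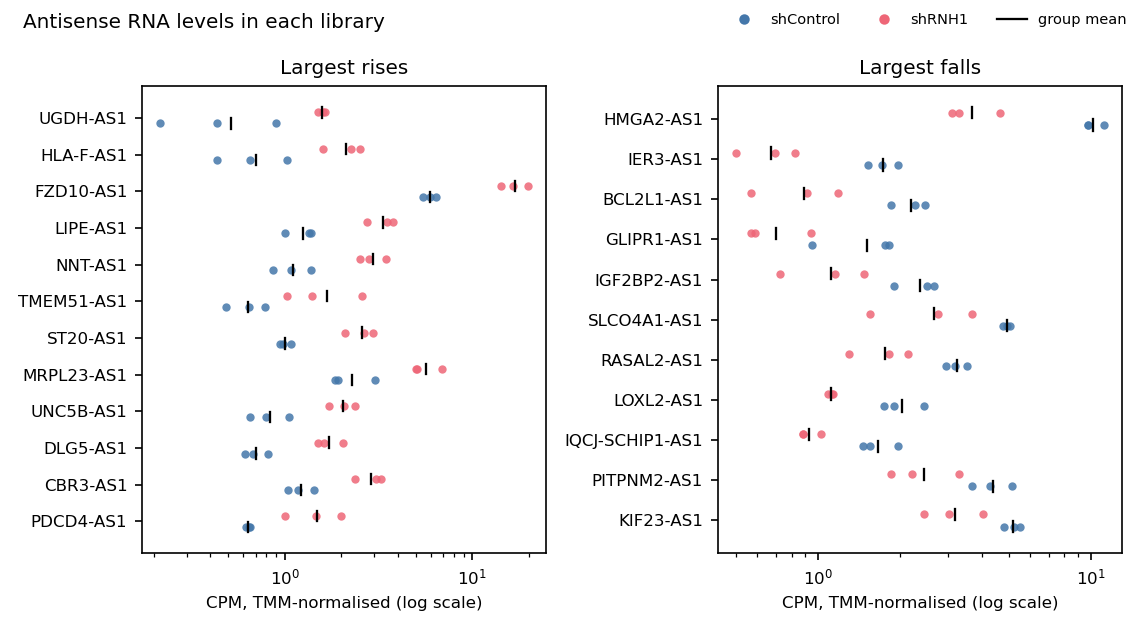
Level of the antisense RNAs with the 12 largest rises (left) and 11 of the 12 largest falls (right) among those past the threshold whose groups do not overlap, in TMM-normalised CPM on a log scale, 1 point per library and a black tick at each group's mean. FZD10-AS1 goes from a mean of 5.94 to 16.8 CPM and HMGA2-AS1 from 10.2 to 3.67 CPM, while most others lie near or under 5 CPM.

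Among the 10 most abundant antisense RNAs, GATA2-AS1, SLC9A3-AS1 and BCAN-AS2 rose, SH3RF3-AS1 fell and the other 6 did not pass. FGD5-AS1 was the most abundant, at 87.5, 88.2 and 80.8 CPM in shControl and 107, 89.4 and 106 CPM in shRNH1. Its groups came close without overlapping, with a log2 fold change of 0.24 (adjusted p = 0.0636, and 0.0132 without shRNH1 replicate 2, 0.0472 with the filter of 1 CPM in 3 libraries, 0.0180 with the expression level offset and 0.00807 with library size alone), while FGD5 was too low to test. OIP5-AS1, also called cyrano and known for binding microRNA miR-7, stood at 60.6, 61.7 and 54.1 CPM against 63.2, 67.5 and 71.8 CPM (log2 fold change 0.20, adjusted p = 0.119, and 0.0250 with library size alone). PAX8-AS1, VPS9D1-AS1, ARRDC1-AS1 and NUTM2A-AS1 had log2 fold changes of 0.048, -0.16, -0.17 and -0.19, none of which passed. ARRDC1-AS1 passed with the GC and length offset (-0.26, adjusted p = 0.0388).

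GATA2-AS1 and SLC9A3-AS1 were the abundant members that rose most. GATA2-AS1 (chr3:128489212-128502348, plus strand) starts inside GATA2, which encodes a transcription factor, and shares no exon base with a gene of the other strand. It stood at 35.1, 39.3 and 45.1 CPM in shControl and at 62.7, 71.8 and 51.5 CPM in shRNH1. The groups did not overlap, and it rose 1.56-fold (log2 fold change 0.64, SE 0.113, adjusted p = 9.14e-05). GATA2 stood at 219, 221 and 249 CPM against 221, 225 and 193 CPM, overlapping, with a 95% interval of its log2 fold change from -0.31 to 0.087. SLC9A3-AS1, within the sodium-proton exchanger gene SLC9A3, stood at 26.7, 32.0 and 31.8 CPM against 47.2, 62.2 and 40.0 CPM. It lay above shControl in every shRNH1 library (log2 fold change 0.72, adjusted p = 5.55e-05), and SLC9A3 rose by 0.54 (adjusted p = 0.00393). Per kilobase, SLC9A3-AS1 stood above its sense gene.

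The calls of 2 abundant members were lost under several settings. BCAN-AS2, of whose exon bases 46.7% lie over BCAN, had a log2 fold change of 0.29 (adjusted p = 0.0391). It missed the threshold without shControl replicate 1 (adjusted p = 0.291), shControl replicate 2 (adjusted p = 0.0917), shRNH1 replicate 1 (adjusted p = 0.0972) or shRNH1 replicate 2 (adjusted p = 0.138), and with a replicate block (adjusted p = 0.0522), DESeq2 (0.0915), RLE scaling (0.0568) or the GC and length offset (0.115). SH3RF3-AS1 stood at 25.9, 24.8 and 36.1 CPM against 16.3, 26.7 and 18.3 CPM. Its groups overlapped, and its log2 fold change of -0.50 (adjusted p = 0.0112) missed the threshold without shControl replicate 3 (adjusted p = 0.0964) or shRNH1 replicate 1 (adjusted p = 0.149), and with DESeq2 (0.192) or library size alone (0.0708). SH3RF3 fell by 0.35 (adjusted p = 0.0191) and likewise missed the threshold without shControl replicate 3 (adjusted p = 0.113), shRNH1 replicate 1 (adjusted p = 0.155) or shRNH1 replicate 3 (adjusted p = 0.0817), and with library size alone (0.115) or the expression level offset (0.0713).

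Of 25 antisense RNAs that are often studied in carcinoma cells, 19 could be tested. By the test over all genes 4 rose and 0 fell (edgeR's quasi-likelihood test), 8 had an unadjusted p under 0.05, and the median log2 fold change was 0.14. That is 21.1% called, near or under the 27.6% of all genes tested. HOXA-AS2, from the HOXA cluster, stood at 5.68, 8.13 and 6.68 CPM against 14.6, 14.6 and 11.6 CPM, clear of each other (log2 fold change 0.99, adjusted p = 4.34e-06). MNX1-AS1 rose by 0.86 (adjusted p = 0.000639), and TMPO-AS1 by 0.63 (adjusted p = 0.000155), while MNX1 and TMPO had log2 fold changes of 0.065 and 0.12 that did not pass. NNT-AS1 is the fourth. AFAP1-AS1, FOXD2-AS1, ZEB1-AS1, CDKN2B-AS1 and TTN-AS1 had log2 fold changes of 0.017, 0.031, 0.031, 0.056 and -0.0040, and FOXP4-AS1 of -0.52 (adjusted p = 0.0582), which passed without shControl replicate 3 (adjusted p = 0.0466) or shRNH1 replicate 2 (adjusted p = 0.0493). DESeq2 and limma-voom also called 4 higher and 0 lower.

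The antisense RNAs that changed were compared with their sense genes in the 406 pairs whose sense gene could be tested. The sense genes themselves, 402 different ones, were 70 higher and 91 lower (40.0%), with a median log2 fold change of -0.034. Their median level was 42.0 CPM. Of all genes tested (median 6.63 CPM) 27.6% passed, and of those from 1 CPM on (median 18.3 CPM) 33.9%. Both backgrounds hold rarer genes than the sense genes, and among genes of 1 to 10 CPM 28.2% passed. The 40.0% is therefore not set beside genes of like level, and no excess is read from it. In 53 pairs both genes passed in the same direction, 31 upward and 22 downward, and in 2 pairs they passed in opposite directions. For members with at least 1 CPM in each group, these counts were 41 and 1. The shares that follow include members that reached 1 CPM in 1 group alone, whose antisense direction was fixed by the rule. Where the antisense RNA fell, the sense gene fell in 22 of 28 pairs (78.6%), and the fitted sense change was below 0 in all 28, with a median of -0.54. Where the antisense RNA rose, the sense gene rose in 31 of 71 pairs (43.7%), fell in 2 (2.82%) and did not pass in 38. Where the antisense RNA did not pass, 12.7% of sense genes were higher and 22.1% lower.

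Across the 406 pairs Pearson's r between the 2 log2 fold changes was 0.53 and Spearman's rho 0.47. The pairs include members that reached the minimum level in a single group, whose antisense direction was fixed by the rule. Pairs are not independent samples: all come from the same 6 libraries, and where exons overlap they can share reads. With exon overlap r was 0.46 over 283 pairs, with overlapping spans alone 0.75 over 95 pairs, and for divergent genes 0.61 over 20 pairs. It was 0.70 over the 101 pairs whose antisense RNA has no exon base over any gene of the other strand, and 0.24 over the 87 pairs in which at least 20% of the exon bases overlap. In those 101 pairs 16 passed in the same direction and 1 in opposite directions. Reads from introns could still be shared in these pairs if strand was not used, and the part of shared reads was not tested.

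**Figure D3:**
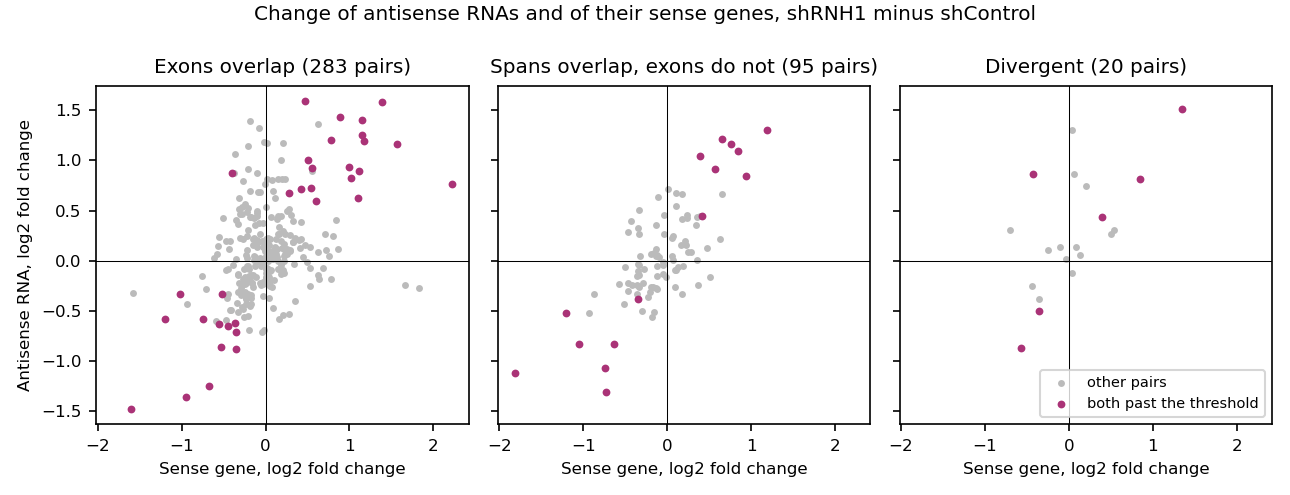
Log2 fold change of each antisense RNA (y axis) against that of its sense gene (x axis), 1 point per pair, for pairs whose exons overlap, whose spans overlap without shared exon bases, and which are divergent. Coloured pairs have both genes past the threshold, and all but 2 of them lie to the upper right or the lower left of 0.

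The 2 pairs with opposite directions were URB1-AS1 with URB1 and TRABD-AS1 with TRABD. URB1, which encodes a factor for making the large ribosomal subunit, stood at 213, 220 and 228 CPM against 173, 164 and 157 CPM, without overlap (log2 fold change -0.42, adjusted p = 0.000815). URB1-AS1 stood at 2.05, 2.20 and 1.95 CPM against 4.31, 3.10 and 3.94 CPM, also without overlap but upward (log2 fold change 0.87, adjusted p = 0.00151). TRABD-AS1, near the end of TRABD, stood at 0.668, 0.871 and 1.19 CPM against 1.80, 1.77 and 1.42 CPM. It is a member through shRNH1 alone, and rose by 0.87 while TRABD fell by 0.40 on the log2 scale (adjusted p = 0.00310). Without shControl replicate 1, shControl replicate 2, shRNH1 replicate 1 or shRNH1 replicate 2, each in turn, 1 such pair was left.

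Among divergent pairs, whose antisense RNAs start from a shared promoter region such as those printed above, 7 of 20 antisense RNAs rose and 2 fell (45%), beside 27.6% of all genes tested. The falling ones are RASAL2-AS1 and SH3RF3-AS1, and the groups of SH3RF3-AS1 overlapped. SSTR5-AS1 stood at 3.57, 3.51 and 4.29 CPM against 6.28, 7.80 and 5.85 CPM, without overlap (log2 fold change 0.81, adjusted p = 0.000358). SSTR5, a receptor for somatostatin, stood at 17.2, 17.5 and 21.8 CPM against 32.3, 41.3 and 28.3 CPM and rose by 0.85 (adjusted p = 7.15e-06). RASAL2-AS1 stood at 3.19, 2.95 and 3.53 CPM against 1.83, 2.14 and 1.30 CPM, without overlap (log2 fold change -0.87, adjusted p = 0.00342). RASAL2, which encodes a GTPase-activating protein of Ras, fell from 70.3, 67.4 and 71.3 CPM to 44.7, 50.3 and 46.2 CPM (log2 fold change -0.57, adjusted p = 3.13e-05). FZD10-AS1 and RAB4A-AS1 also rose with their genes. DLG5-AS1, MNX1-AS1 and BCAN-AS1 rose at genes that did not pass, and DLG5-AS1 is a member through shRNH1 alone, which fixed its direction. These 9 were chosen after their values were seen.

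The share of members that passed varied with how the RNA lies against its gene. Of 166 antisense RNAs that start inside the sense gene and run out of it past the gene's own start, 43 rose and 8 fell (30.7%), with a median log2 fold change of 0.16. Of 119 lying wholly inside the sense gene, 8 rose and 12 fell (16.8%), with a median of -0.079. Of 80 that start outside and run into the end of the sense gene, 8 rose and 5 fell, and of 26 that contain the whole sense gene, 5 rose and 1 fell. Among all tested genes 15.3% were higher and 12.3% lower. The difference between these classes was not tested, and their median levels differed, with 2.54 CPM in the first and 1.97 CPM in the second. The counts include members that reached 1 CPM in shRNH1 alone or in shControl alone, whose direction was fixed by the rule. The 109 members without an exon base over the other strand were 13 higher and 10 lower, and the 317 with such bases 61 higher and 18 lower.

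**Figure D4:**
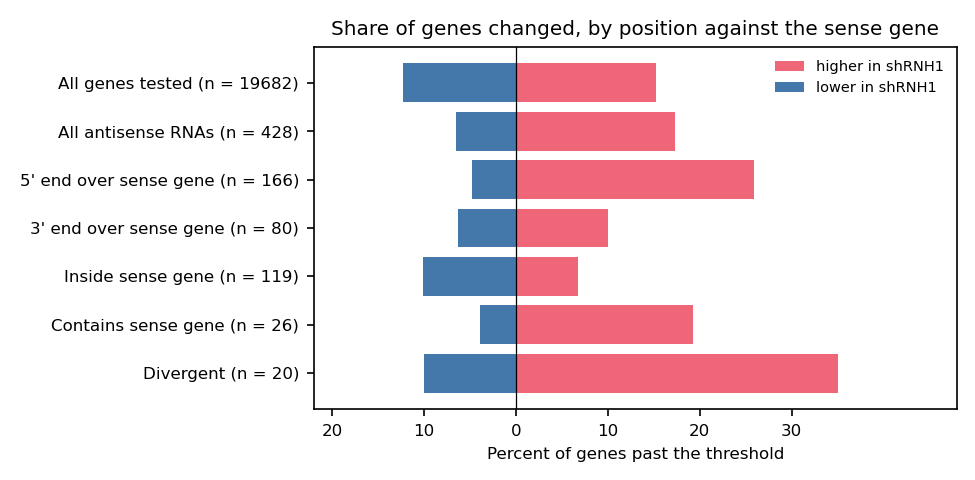
Percent of antisense RNAs past the threshold, higher to the right and lower to the left of 0, for all genes tested, all antisense RNAs and 5 ways in which the RNA lies against its sense gene, with the number of genes beside each name. The bar to the right is longest for divergent RNAs (35% of 20) and for those whose 5′ end lies over the sense gene (25.9% of 166), and shortest for those inside the sense gene (6.72% of 119). The bars of antisense RNAs include members that reached the minimum level in a single group, whose direction was fixed by the rule.

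The ratio of antisense to sense counts was computed in each library as a log2 value, with 0.5 added to each count. It does not depend on how libraries are scaled. A shift that varies with expression level does not cancel in it, since the members were rarer than their sense genes (median 2.55 against 42.0 CPM). The part of such a shift was not tested. The groups did not overlap for 120 of 406 pairs, 87 with a higher ratio in shRNH1 and 33 with a lower one, which for a single pair gives an exact two-sided permutation p of 0.1, the smallest that 3 against 3 libraries allow. This was 29.6% of pairs, beside 40% of all genes tested whose levels did not overlap. The median difference was 0.063. These pairs include members that reached 1 CPM in a single group, whose antisense direction was fixed by the rule.

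At MRPL23 the mean ratio went from -3.30 to -1.90, a difference of 1.40, and all shRNH1 libraries lay above all shControl libraries. At URB1 it went from -6.73 to -5.45, at TRABD from -8.41 to -7.11, at DLG5 from -9.03 to -7.78 and at GATA2 from -2.53 to -1.79, each without overlap between groups. TRABD-AS1 and DLG5-AS1 are members through shRNH1 alone, so their antisense direction was fixed by the rule. In some pairs that moved together the ratio changed little. In others the 2 genes moved the same way by unlike amounts, such as LIPE-AS1 with a log2 fold change of 1.43 and LIPE with 0.89. Pairs of the first kind were these. FZD10 went from -1.27 to -1.12, without overlap, and HMGA2 from -2.58 to -2.46, with overlapping groups (exact permutation p = 0.5). SSTR5 differed by -0.035, also with overlap (exact permutation p = 0.4). Among the antisense RNAs that rose and have a tested sense gene, 41 had a ratio wholly above shControl and 1, TSPEAR-AS2, wholly below it. Some of the former are members through shRNH1 alone. All were picked by their rise, which favours a higher ratio, so no result is read from this split. Among those that fell, 5 ratios lay wholly above shControl and 5 wholly below, and among those that did not pass 41 and 27. TSPEAR-AS2 rose by 0.77 (adjusted p = 0.000275), and TSPEAR, at 0.0514, 0.242 and 0.136 CPM in shControl and 0.531, 0.826 and 0.697 CPM in shRNH1, rose by 2.22 (adjusted p = 0.00187). It was picked out after its value was seen.

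**Figure D5:**
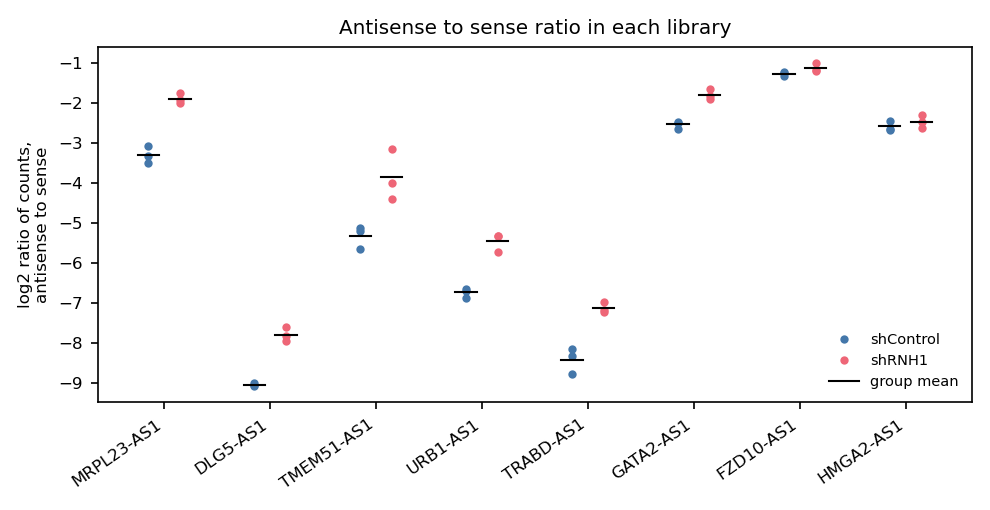
Log2 ratio of antisense to sense counts (y axis, 0.5 added to each count) in each library for 8 named pairs, with a line at each group's mean. The shRNH1 points lie above the shControl points for MRPL23-AS1, DLG5-AS1, TMEM51-AS1, URB1-AS1, TRABD-AS1 and GATA2-AS1, only just so for FZD10-AS1, and among them for HMGA2-AS1. DLG5-AS1, TMEM51-AS1 and TRABD-AS1 are members through shRNH1 alone, which fixed their antisense direction.

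The 2 most similar classes of noncoding RNA, chosen by the same minimum level, were set beside the antisense RNAs. Of 137 divergent transcripts (symbols ending in -DT), 22 were higher and 2 lower (17.5%), with a median log2 fold change of 0.20. Of 163 intergenic RNAs (LINC symbols), 40 were higher and 29 lower (42.3%), with a median of 0.15. Of all genes tested 27.6% passed, and of those of 1 to 10 CPM 28.2%. These differences from the antisense RNAs were not tested. The count of higher divergent transcripts was 13 without shControl replicate 1 or without shRNH1 replicate 1, and their count lower was 5 without shRNH1 replicate 2 and 1 without shControl replicate 1, shRNH1 replicate 1 or shRNH1 replicate 3.

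Genes for the machinery that ends and removes such RNAs were counted in 4 lists, beside 27.6% called and 12.3% lower among all genes tested. Of 30 genes for nuclear RNA decay (the exosome and its cofactors), 0 were higher and 7 lower (23.3%) by edgeR's quasi-likelihood test, 13 had an unadjusted p under 0.05, and the median log2 fold change was -0.17. DESeq2 called 0 higher and 10 lower, limma-voom 0 and 8, and without shRNH1 replicate 2 there was 1 higher. Scaled by library size alone, 1 was higher and 4 lower. PABPN1, the nuclear poly(A)-binding protein gene, fell by 0.63 (adjusted p = 0.000192), TENT4A, a noncanonical poly(A) polymerase gene, by 0.43, ZC3H18, a link between the cap-binding complex and the exosome, by 0.43, and NCBP3 by 0.39. The exosome genes EXOSC3, EXOSC6 and DIS3 were the other members that fell. Of 23 polyadenylation and termination factors, 0 were higher (0 also by DESeq2 and limma-voom, 10 with an unadjusted p under 0.05 in either direction) and 7 lower (30.4%), with CSTF2 down by 0.56, CPSF1 by 0.48, CPSF4 by 0.41 and WDR33 by 0.33 (adjusted p = 0.0510 for WDR33 with library size alone). Without shControl replicate 1, or without shControl replicate 2, 4 of the list were lower, and without shControl replicate 3 there was 1 higher. Scaled by library size alone, 2 were higher and 3 lower. In the main fit the decay and polyadenylation shares were near the 27.6% of all genes called in either direction. All calls of both lists were falls, 23.3% and 30.4%, beside 12.3% lower of all genes tested.

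The Integrator list held INTS1 to INTS15 and also INIP, NABP1 and NABP2, which carry no INTS symbol. Counts of Integrator subunits below refer to this whole list. Of its 18 genes 0 were higher and 2 lower (11.1%, under the share of all genes tested), INTS11 by 0.29 and INTS9 by 0.28. An unadjusted p under 0.05 (edgeR's quasi-likelihood test) was found for 3. DESeq2 and limma-voom also called 0 higher and 2 lower. The count lower was 0 without shControl replicate 3, without shRNH1 replicate 1 and with a replicate block, and 1 without any of the other 4 libraries, and there was 1 higher without shControl replicate 1. Of 15 genes for nonsense-mediated decay, which degrades many spliced noncoding RNAs in the cytoplasm, 0 were higher and 10 lower (66.7%, beside 12.3% lower of all genes tested; 12 with an unadjusted p under 0.05), with a median of -0.33. The 66.7% is likewise not set beside genes of like level, with a median of 33.3 CPM in the list against 6.63 CPM for all genes tested. DESeq2 called 0 and 12, and limma-voom 0 and 10. SMG5 fell by 0.51, UPF2 by 0.46, SMG6 by 0.43 and CASC3 by 0.41. Scaled by total count alone, 4 of the list were lower. The part of these changes in the levels of antisense RNAs was not tested.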

How the data were processed

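RNA sequencing of KYSE510 cells, 3 shControl and 3 shRNH1 libraries, was analysed from the deposited counts, whole-number reads per Ensembl gene with no normalisation by the authors. Per the labels' protocols, poly(A) RNA was selected, fragmented and copied with random primers. The submitters' processing notes list GRCh38 with the tools HISAT2, StringTie and DESeq2. The sources used here do not say which counter was run or whether it used strand. Symbols were found for 62700 of 62700 IDs, and 58207 IDs were in GENCODE 29, a different release, which gave positions, gene types and lengths. Promoter windows came from RefSeq (GRCh38.p14). No column of values was left unmatched.

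Groups were compared with edgeR's quasi-likelihood test (edgeR 4.0.16, R 4.3.3) after TMM normalisation and filterByExpr by group, adjusted by Benjamini-Hochberg over 19682 genes (threshold 0.05). The code was tested on simulated data. Errors of log2 fold changes are SE from the fit. Library totals of 31394687 to 41103220 counts set the precision of the rarest members. Antisense-to-sense ratios used counts with 0.5 added and the exact two-sided permutation test. Pairs of replicates within a group differed by a chi-square of 6.45 to 21.0 per gene, above sampling noise, so all 6 were kept.

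Named genes were RNASEH1 and RNH1, the 10 most abundant members, the 12 largest rises and 12 largest falls among members past the threshold whose groups do not overlap, the sense gene of each, the studied antisense RNAs, and up to 4 genes with the smallest adjusted p from each other list; 1 of the falls and its sense gene are not reported here. The members and lists were chosen with earlier results of these data known. Alternatives were other scalings (RLE, library size alone), other filters, offsets for expression level or for GC content and length (known for 95.3% of tested genes), a replicate block, each library left out, limma-voom (limma 3.58.1), DESeq2 1.42.0, and other rules for members.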

Additional observations from a re-analysis of the deposited data

How the results depend on the processing

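The counts of higher members (74), of lower members (28) and of pairs in the same direction (53) stayed within 1.5 times these values under other filters, RLE scaling, the GC and length offset, limma-voom and DESeq2. The exceptions follow. The replicate numbers do not pair the samples (same-number correlations of deviations 0.045, 0.056 and -0.049); with a replicate block 79 members were higher and 28 lower, 52 pairs went the same way and 4 opposite ways, and Integrator subunits lower numbered 0. With the replicate block and the GC and length offset, 74 were higher and 34 lower, the sense median was -0.074, Integrator lower was 1 and divergent transcripts lower 4.

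Scaled by library size alone, 16 members were lower, 56 sense genes were lower, the medians were 0.18 (antisense) and 0.078 (sense), the studied RNAs higher numbered 7, decay genes 1 higher and 4 lower, Integrator subunits 2 higher and 0 lower, polyadenylation factors 2 higher and 3 lower, nonsense-mediated decay genes 4 lower, divergent transcripts 1 lower and intergenic RNAs 19 lower. An offset for expression level gave 45 lower members, the antisense median was -0.055, studied RNAs lower numbered 2, Integrator lower 1, polyadenylation factors higher 1, and divergent transcripts 13 higher and 4 lower. The GC and length offset gave a sense median of -0.068, and RLE scaling 1 studied RNA lower. Pairs in opposite directions numbered 4 with a filter of 1 CPM in 3 libraries, which also gave 1 polyadenylation factor higher, 4 without a filter, which gave 1 Integrator subunit lower, 4 for members from 0.5 CPM, and 1 for members from 2 CPM or with at least 1 CPM in each group. For members without an exon base over the other strand the counts were 13 higher, 10 lower, 16 pairs the same way and 1 the opposite way, as fewer genes were counted.

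With single libraries left out, higher members ranged from 58 to 71, lower members from 16 to 31, pairs the same way from 39 to 52 and opposite ways from 1 to 3, studied RNAs lower from 0 to 1, decay genes higher from 0 to 1, Integrator subunits from 0 to 1 higher and from 0 to 1 lower, polyadenylation factors from 0 to 1 higher and from 4 to 8 lower, and divergent transcripts from 13 to 21 higher and from 1 to 5 lower. The cause of these shifts was not tested.

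The log2 fold changes whose sign changed, all of genes that had not passed, were these. Under library size alone MRPL23 (0.046), GATA2 (0.0047), MCM3AP-AS1 (0.040), TTN-AS1 (0.10). Under the expression level offset GATA2 (0.0060), VPS9D1 (-0.087), NUTM2A (-0.11), AFAP1-AS1 (-0.11), FOXD2-AS1 (-0.071), ZEB1-AS1 (-0.10), CDKN2B-AS1 (-0.10). Under DESeq2 VPS9D1 (-0.016), ARRDC1 (-0.021), NUTM2A (-0.0083), AFAP1-AS1 (-0.0078). Under the GC and length offset VPS9D1 (-0.087), ARRDC1 (-0.088), NUTM2A (-0.046), FOXD2-AS1 (-0.039), ZEB1-AS1 (-0.0097). Under RLE scaling VPS9D1 (-0.010), ARRDC1 (-0.016), NUTM2A (-0.0016), AFAP1-AS1 (-0.0030). Under the replicate block plus GC and length offset VPS9D1 (-0.094), ARRDC1 (-0.088), NUTM2A (-0.077), FOXD2-AS1 (-0.046), ZEB1-AS1 (-0.033). Under no filter ARRDC1 (-0.00044). Under limma-voom NUTM2A (-0.024), ZEB1-AS1 (-0.011). Under the replicate block NUTM2A (-0.012). With single libraries left out the ranges were MRPL23 -0.19 to 0.046, DLG5 -0.033 to 0.13, OIP5 -0.024 to 0.30, PAX8-AS1 -0.051 to 0.10, VPS9D1 -0.091 to 0.12, ARRDC1 -0.023 to 0.038, NUTM2A -0.25 to 0.21, AFAP1-AS1 -0.14 to 0.15, FOXD2-AS1 -0.068 to 0.15, ZEB1-AS1 -0.19 to 0.27, CDKN2B-AS1 -0.11 to 0.22, TTN-AS1 -0.084 to 0.075.

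Of 1534 comparisons of named genes with an alternative, 1416 kept direction and side of the threshold, 48 lost the call, 13 gained it and 57 changed sign. With 3 libraries a group and a median SE of 0.219 for members, smaller changes of the rarest members were not detectable at this depth.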
